A study of Drosophila melanogaster with 2 samples.

Results

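The regions described here are 560 isolated ChIP-seq peaks of the GFP-tagged protein encoded by CG3407 that lie in introns of protein-coding genes spanning under 30 kb. They are 13.7% of the deposited peaks that passed the irreproducible discovery rate (IDR), which uses the ranks of peaks in the replicates to set how far down a list they are kept. The peaks were chosen by position. In the IDR set, 1715 summits lay within 500 bp of an annotated transcription start site (TSS) and 2374 lay farther from every TSS, of which 1604 lay inside a protein-coding gene and in no exon. The longest gene around the summit, called the host here, spanned under 30 kb for 798 of these. A further 238 were left out because they belong to chains of 3 or more IDR summits with gaps of at most 5 kb, which left 560 peaks in 452 longest hosts. Isolated here means only outside such chains. Pairs of close summits stay, and 14 pairs of neighbouring peaks in 1 host lay at most 1000 bp apart. Because some genes overlap, 478 genes in all hold at least 1 of the peaks.

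The chromatin came from whole Drosophila melanogaster embryos of mixed sex aged 0 to 14 h, from 1 transgenic line that carries GFP at the C terminus of the CG3407 protein. The 2 biological replicates form 1 group, sonicated to fragments of 200 to 800 bp, and no other genotype, treatment or age was given for comparison. One label of each library says input control, whereas the assay title and the antibody name a ChIP of a transcription factor. The peak lists were treated as ChIP peaks called against 1 control file, as the deposited notes describe them. Whole embryos mix all tissues, so a peak in a few cells cannot be told apart from a weak peak in many, and no list from untagged embryos was used.

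Introns near the 5′ end of a gene are a common place for enhancers in Drosophila, short stretches of DNA that bind transcription factors and raise transcription from a promoter some distance away. Genes of the housekeeping kind tend to have short introns in this species, whereas genes regulated in space and time tend to carry long ones. RefSeq calls the product of CG3407 an uncharacterized protein, and no known DNA preference of it was used here. The forkhead core used below, TGTTTAC, is the word recognised by forkhead-family transcription factors, and the words TATTTAC and TGTTTGC were found near IDR summits in earlier work on these same peaks.

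The sequences of 8 of the peaks are shown as 101 bases around the summit, because they include the highest scores and because they show how the 3 words sit at summits. They are read 5′ to 3′ on the forward strand of dm6 (RefSeq copy of the assembly), in lower case, with the forkhead core, TATTTAC or TGTTTGC on either strand in capitals. The first 4 belong to the peaks with the highest scores whose sequence is printed here.
CG11050, 2L:6612677-6612777: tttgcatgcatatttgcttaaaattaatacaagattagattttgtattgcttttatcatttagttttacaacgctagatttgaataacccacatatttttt
CG32772, X:4910316-4910416: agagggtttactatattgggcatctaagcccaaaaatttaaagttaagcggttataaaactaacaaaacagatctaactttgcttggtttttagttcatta
Lk6, 3R:11761020-11761120: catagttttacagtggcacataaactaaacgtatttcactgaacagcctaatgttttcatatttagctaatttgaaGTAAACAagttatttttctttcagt
CG9663, 2L:3302138-3302238: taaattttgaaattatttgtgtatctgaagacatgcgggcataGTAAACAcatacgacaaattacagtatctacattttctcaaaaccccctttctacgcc

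The other 4 are, after Lk6 and CG9663, the next highest peaks with one of the words whose sequence is printed here. CG6333 has a forkhead core that begins at the summit base, and Oatp30B has TGTTTGC and the forkhead core in the same window.
CG6333, 3L:17485571-17485671: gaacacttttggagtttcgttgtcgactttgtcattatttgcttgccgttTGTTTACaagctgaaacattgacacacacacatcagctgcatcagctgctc
Tre1, X:5678022-5678122: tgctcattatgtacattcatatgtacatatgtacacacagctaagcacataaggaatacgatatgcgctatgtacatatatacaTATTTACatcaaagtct
Gdh, 3R:23940618-23940718: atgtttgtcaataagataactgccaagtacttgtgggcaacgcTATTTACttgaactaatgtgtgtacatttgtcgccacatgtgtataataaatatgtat
Oatp30B, 2L:9525803-9525903: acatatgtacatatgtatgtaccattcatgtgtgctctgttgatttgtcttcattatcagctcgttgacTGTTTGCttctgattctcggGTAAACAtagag
The 2 highest windows hold none of the 3 words and are poor in G and C, at 23.8% in CG11050 and 30.7% in CG32772. Of the 8 windows, CG6333 has the highest GC content, at 42.6%.

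Each peak has a score, given by the authors' peak calling, in the list made from both replicates together, and a score in each replicate's own list of 30000 candidates. The 3 lists have their own scales, so scores are compared within a list and ranks between replicates. The pooled scores of the 560 peaks ran from 162.8 to 2687, with quartiles of 196.0, 246.3 and 350.1. Their median was near the 246.7 of the 546 isolated intronic peaks in longer hosts and above the 231.5 of the 439 isolated intergenic peaks. The highest peaks of the IDR set lay elsewhere: none of the 10 highest, 1 of the 50 highest and 7 of the 100 highest were among the 560. Intronic peaks of shorter hosts were 53 of the 500 highest, or 10.6%, against 13.7% of the whole set. The same shortfall held for introns of longer hosts, with 40 of the 500 highest, or 8.0%, against 13.4% of the set, and for intergenic peaks, with 27, or 5.40%, against 10.7%.

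The highest of the 560 lay in CG11050, at 2L:6612522-6612904, with a pooled score of 2687, a score of 1034 in replicate 1 and 1656 in replicate 2. It held rank 26 in the IDR set, 31 in replicate 1 and 23 in replicate 2. Its summit lay in intron 2, which spans 140 bp in the transcript used for numbering, so the peak also covers neighbouring exons. CG32772 followed with a pooled score of 1752 at X:4910184-4910553, and 734.1 and 1018 in the replicates. Lk6 encodes a protein kinase that phosphorylates the translation factor eIF4E. Its peak at 3R:11760876-11761231 scored 1728, with 688.8 and 1047 in the replicates, 991 bp from a start of the gene. The next peak, with a pooled score of 1726, lay at 2R:21703179-21703661 in introns of both HmgD and HmgZ, which encode DNA-bending high mobility group proteins, and cannot be assigned to one of them. The replicates placed these 4 peaks within ranks 23 to 56, far above the bulk of the 560, whose median rank was 2250 in replicate 1 and 2236 in replicate 2.

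CG9663 held 2 peaks that share 1 interval, with summits scoring 1507 and 771.8. Both take the same candidate in each replicate (608.9 and 885.8), so they are 1 site in the replicate lists. S, also called Star, encodes a membrane protein that moves epidermal growth factor receptor ligands out of the endoplasmic reticulum. Its higher isolated peak scored 1400 and lay 20098 bp from the start of S, in intron 2. The other isolated peak of S, with 187.5, lay in intron 1. Intron 1 of S also held IDR summits outside the isolated set, with scores of 1536, 707.7, 675.9, 492.2 and 186.6. They lay 1860 to 8943 bp from its outermost start, and the highest of them exceeded the peak of 1400. The summit of the 1400 peak was GC-rich, at 59.4% within 50 bp. CG12769 scored 1340, CG6333 1157 and CG4496 1116. Tre1, a G-protein-coupled receptor gene needed for germ cell migration, held a peak of 1122 and a second of 246.5 in the same intron.

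The next peaks lay in genes of several kinds. The peak in trx, which encodes the Trithorax histone methyltransferase, scored 1090, with 456.9 and 623.6 in the replicates. The peak in sim, whose product specifies the ventral midline of the nervous system, scored 1043, with 418.8 and 625.6. The insulin-binding protein gene ImpL2 held peaks of 999.7 and 653.4 in intron 1. Scores in simj, a subunit gene of the nucleosome remodelling complex NuRD, and in Mad, the Smad transducer of Dpp signalling, were 943.9 and 918.6. The peak in wde, which encodes a partner of a histone H3K9 methyltransferase, scored 861.9. Metabolic genes were in the same range, with 905.9 at Gdh (glutamate dehydrogenase), 895.8 at the fatty acid elongase gene Baldspot and 849.0 at Zw (glucose-6-phosphate dehydrogenase). The transporter gene Oatp30B scored 885.0 and kuk, which encodes a nuclear envelope protein of the early embryo, 859.4. The remaining genes of the 25 highest were CG31635 with 1074, CG3726 with 1052, Reph with 973.2 and CG32486 with 972.5. In 21 of these 25 the summit lay in intron 1.

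**Figure D1:**
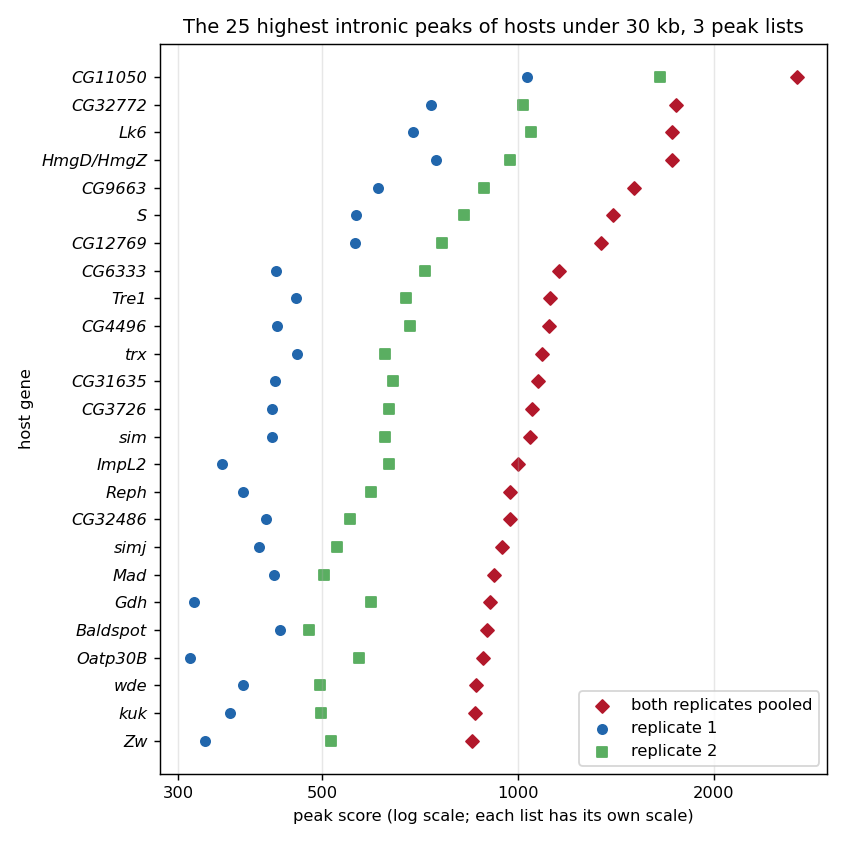
Peak scores (horizontal axis, log scale, no unit) of the 25 highest isolated intronic peaks in hosts under 30 kb, with host genes on the vertical axis; diamonds are the list of both replicates together, circles replicate 1 and squares replicate 2. CG11050 is highest in all 3 lists, at 2687, 1034 and 1656, and each list has its own scale.

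Both replicates ranked most of the 560 peaks highly. A replicate 1 candidate overlapped 549 peaks by at least 1 bp and a replicate 2 candidate 559. The top candidates of each replicate, as many as there are IDR peaks, covered 481 peaks in replicate 1 and 503 in replicate 2. Both held 432, or 77.1% (95% Wilson interval 73.5 to 80.4), neither held 8, and the share over the whole IDR set was 76.5%. The corresponding share was 75.6% (71.9 to 79.1) for intronic peaks of longer hosts and 72.2% (67.8 to 76.2) for intergenic peaks. Neither difference passed Fisher's exact test (log2 odds ratio 0.12, adjusted p = 0.571, and 0.38, adjusted p = 0.0932). The first of these changed sign under 4 of the alternatives tried, listed with the other settings at the end. Across the 548 peaks with a candidate in both replicates, the replicate scores had a Spearman's rho of 0.78, and on a log10 scale a Pearson's r of 0.87. These correlations are descriptions across peaks, which share the pooled score that selected them, and no p is attached. That score was made from both replicates together, so a high share in both top lists was partly set in advance.

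Peaks missing from one of the top lists were mostly weak ones. With the peaks split by pooled score into 4 groups of 140, 26.4% of the lowest group were in both top lists, against 85.0% in the next group and 98.6% in each of the upper ones. The pooled score was made from both replicates together, so this trend was largely set in advance. Among stronger peaks, drn had a pooled score of 500.5 and rank 603 in replicate 1 but no candidate in replicate 2. CycE scored 438.3 and held rank 452 in replicate 1 and 4910 in replicate 2. In the other direction, par-1, a polarity kinase gene, scored 316.7 and held rank 1260 in replicate 2 with no candidate in replicate 1. These 3 were picked after their values were seen.

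Introns of shorter hosts held IDR summits more densely than the other non-promoter sequence. Counting chains as well, 798 IDR summits fell in 16.99 Mb of such sequence more than 500 bp from a TSS, or 47.0 per Mb (exact Poisson interval 43.8 to 50.3). Introns of longer hosts held 806 in 34.61 Mb, or 23.3 per Mb (21.7 to 24.95), and intergenic sequence held 617 in 36.46 Mb, or 16.9 per Mb (15.6 to 18.3). All candidates, peaks and background together, were also denser there, at 318.8 per Mb against 221.0 and 182.0. The intervals cover counting error only.

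Relative to the candidates, IDR peaks were also more frequent in shorter hosts. Over the whole pooled list, 13.6% of candidates are in the IDR set. The share was 14.7% of 5416 candidates (Wilson 13.8 to 15.7) in introns of hosts under 30 kb, against 10.5% of 7648 (9.87 to 11.3) in introns of longer hosts. The log2 odds ratio was 0.55 (Fisher's exact test, two-sided, Benjamini-Hochberg over 6 tests, adjusted p = 2.994e-12). Against intergenic candidates, with 9.30% of 6636 (8.62 to 10.02), it was 0.75 (Fisher's exact test, adjusted p = 2.318e-19). Neighbouring candidates are not independent and come from 1 group of embryos, so these p-values describe the lists and not new embryos.

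Shorter hosts leave less room far from a start, so the shares were also read by distance. Between 1 and 2 kb from the nearest TSS, 15.7% of candidates in shorter hosts were IDR peaks, against 11.3% in longer hosts and 10.8% of intergenic ones. Between 2 and 5 kb, the bin with the most candidates in shorter hosts, shorter and longer hosts were close, at 13.1% (11.6 to 14.8) and 11.9% (10.6 to 13.4), with overlapping intervals, and intergenic candidates had 9.38%. Between 5 and 10 kb the shares were 14.6%, 10.1% and 7.02%. Between 0.5 and 1 kb, shorter and longer hosts were close, at 17.4% and 16.7%, and above 10 kb all classes lay between 7.86% and 8.40%. Among candidates more than 2 kb from every TSS, a restriction chosen after the data were seen, the log2 odds ratios were 0.47 and 0.72, and both passed the test. The share also fell with host size from 5 kb on. It was 14.1% in hosts under 5 kb, 16.3% from 5 to 10 kb, 15.3% from 10 to 20 kb, 13.2% from 20 to 30 kb, 11.4% from 30 to 60 kb and 9.82% above 60 kb.

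**Figure D2:**
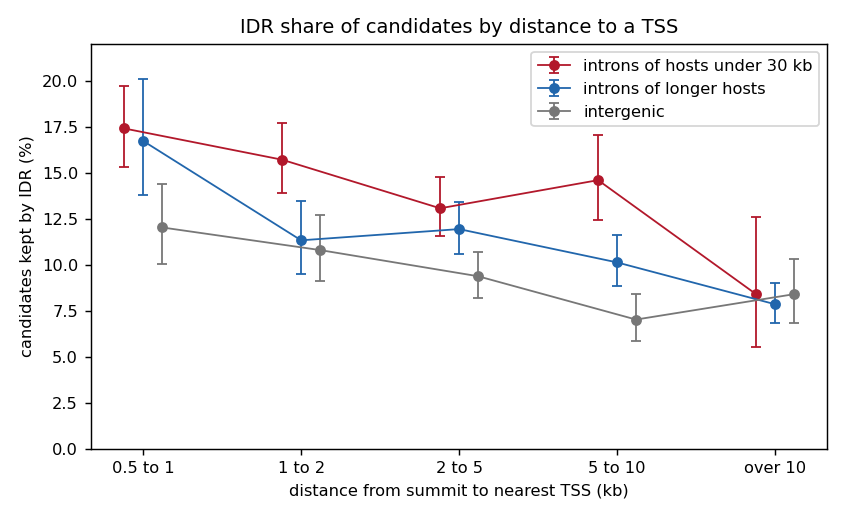
Share of pooled candidates kept by IDR (vertical axis, percent) by distance from the summit to the nearest TSS (horizontal axis, kb) in introns of hosts under 30 kb, introns of longer hosts and intergenic sequence; bars are 95% Wilson intervals, which cover counting error only. Shorter hosts have 15.7% against 11.3% and 10.8% at 1 to 2 kb, their interval overlaps that of longer hosts at 2 to 5 kb (13.1% and 11.9%), and above 10 kb all lie between 7.86% and 8.40%.

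Most of the 560 summits lay in the first intron of their host, though not all close to its start. The distance from the outermost start of the host had quartiles of 1621, 4123 and 8267 bp, in hosts of median span 14904 bp, and 178 summits lay within 2000 bp of that start. The distance to the nearest TSS of any gene, internal starts included, had quartiles of 947, 1722 and 4069 bp. For 429 peaks that TSS belonged to the host and for 131 to another gene. The summit lay in intron 1 in 362 cases, in intron 2 in 134 and in a later intron in 64, with median scores of 258.6, 234.8 and 234.7. Within the intron there was little preference for an end, as 297 summits, or 53.04%, lay nearer its 5′ end. Introns holding a peak had a median length of 6350 bp, and 18 summits lay within 100 bp of an exon. Pooled score was almost unrelated to intron length across the 560 peaks (Spearman's rho 0.00), to host span (-0.08) and to distance from a TSS (-0.10). It was somewhat lower where GC content was higher (-0.22). These peaks share libraries and depth, and no p is given. All 560 scored 162.8 or more, so these correlations leave out the weaker candidates that the shares by distance and host size include.

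First introns were 64.6% of the 560 peaks (60.6 to 68.5) and 60.0% of the 4618 other candidates of the same class (58.6 to 61.4). The log2 odds ratio was 0.29, with a Fisher's exact p of 0.0353 and an adjusted p of 0.0529, which misses the threshold of 0.05. This call depends on the setting: in the same exact test without the chain rule the value was 0.33 (adjusted p = 0.00705), and among the upper 50% of IDR peaks by score it was 0.54 (adjusted p = 0.00256). Other settings moved it the other way. With gaps of up to 10 kb counted as chains it was 0.18 in that exact test (adjusted p = 0.502), and with a TSS window of 1000 bp 0.25 (adjusted p = 0.122). In the same exact test, replicate 2's list alone gave 0.27 (adjusted p = 0.0504) and replicate 1's list alone 0.53 (adjusted p = 8.613e-05). For a single list the adjustment covers fewer tests, since those of both top lists do not apply. By intron number, IDR peaks were 15.8% of candidates in intron 1, 15.2% in intron 2 and 9.41% in later introns.

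**Figure D3:**
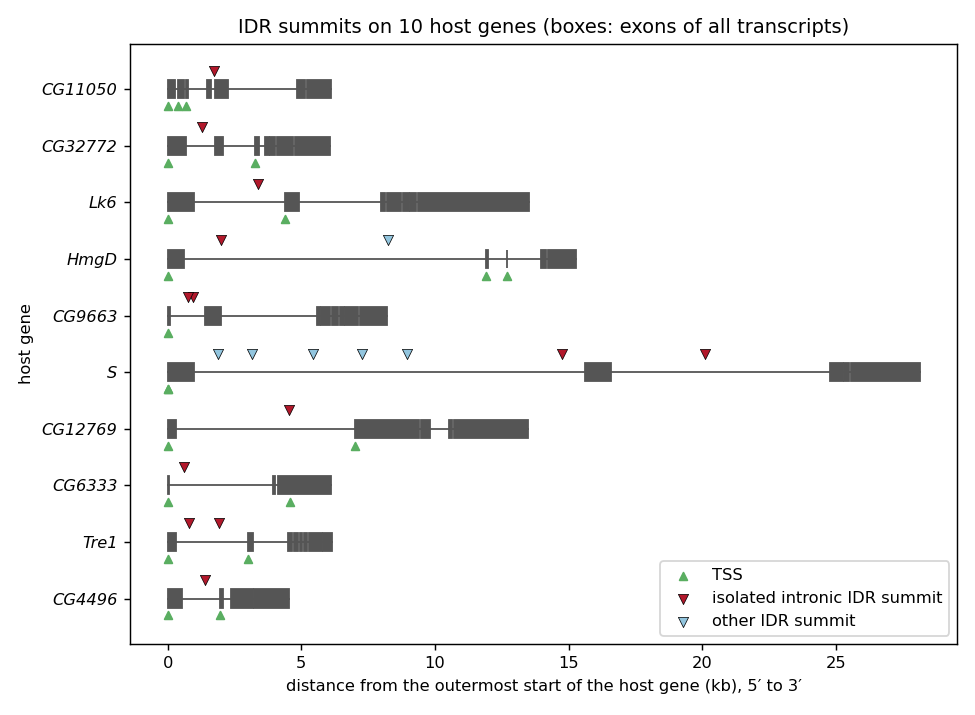
The 10 host genes with the highest peaks, drawn to scale from their outermost start (horizontal axis, distance in kb, 5′ to 3′; vertical axis, host gene), with boxes for exons of all transcripts, upward triangles for TSSs and downward triangles for IDR summits (dark, isolated intronic; light, others within the gene). Most dark summits sit in the first few kb, whereas the higher of those in S lies 20.1 kb from its start.

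The chromosome arms held similar numbers for their size, except chromosome 4. Peaks per Mb of eligible intron sequence were 30.7 on 2L, 28.7 on 2R, 35.9 on 3L, 34.6 on 3R and 38.7 on X, and the counting intervals of all 5 overlap. Chromosome 4 had 60 candidates of this class in 0.378 Mb and no IDR summit, for which the counting interval reaches 9.77 per Mb.

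Some hosts held several isolated peaks, and 359 of the 452 longest hosts held 1, 79 held 2, 13 held 3 and 1 held 4. The gene with 4 was atos, whose product Atossa regulates transcription in invading macrophages, with pooled scores of 333.5, 319.4, 258.9 and 202.9 in introns 1 and 2. The 13 genes with 3 were CG13917, CG14441, CG32365, CG42258, CG9328, Ctps, E23, Evi5, T48, Tpr2, crp, sba and zfh1. Across E23, an ecdysone-induced ABC transporter gene, the peaks scored 536.2, 508.3 and 177.2. In T48, whose product acts in the apical constriction of gastrulating mesoderm cells, they scored 297.6, 235.7 and 217.0, all in the 25252 bp intron 2. The transcription factor gene zfh1 had 527.4, 266.3 and 211.6, but the first and last overlap and take the same candidate in each replicate (208.0 and 319.8). Neighbouring peaks of a host lay a median of 4102 bp apart over 108 pairs, and 6 pairs had overlapping intervals. Since chains of 3 or more within 5 kb were left out, these numbers understate how many IDR peaks such hosts hold.

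Genes that hold an isolated intronic peak more often had an IDR summit at one of their own TSSs as well, but this difference did not hold under every setting. There were 8162 genes under 30 kb with intron sequence more than 500 bp from a TSS, of which 5.86% hold one of the 560 peaks and 16.2% have an IDR summit within 500 bp of a TSS. Among hosts, 106 of 478 had such a promoter summit, or 22.2% (18.7 to 26.1), against 1218 of 7684 other genes, or 15.9% (15.1 to 16.7). The log2 odds ratio was 0.60 (Fisher's exact test, adjusted p = 8.541e-04). In the same exact test with gaps of up to 10 kb counted as chains it was 0.16 (adjusted p = 0.502), and with promoters cut at 250 bp from a TSS 0.35 (adjusted p = 0.0765). Genes with 1 kb or more of eligible intron, a restriction chosen after the data were seen, gave 0.34 in that exact test (adjusted p = 0.0895). The chain rule also acts on this count, since an intronic summit close to a promoter summit and another peak is left out. A gene whose only intronic IDR summits were left out in this way counts among the other genes. With no chain rule the shares were 29.98% in hosts and 15.16% in other genes. With gaps of up to 10 kb counted as chains they were 17.75% and 16.15%. CG11050, CG31635, Reph, CG32486, Baldspot, Oatp30B, wde and kuk are hosts with both kinds of summit among the 25 highest peaks, and the other 17 have none at their TSSs.

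The amount of intron sequence moved with hosting, which bears on any comparison of gene groups. Only 0.199% of the 4516 genes with under 500 bp of eligible intron hold a peak, against 12.1% of those with 2 to 5 kb and 32.04% of those with 10 to 30 kb. Promoter summits were more frequent in hosts than in other genes of like intron length from 5 to 10 kb, at 27.5% against 22.4%, and from 10 to 30 kb, at 24.3% against 16.9%. In each of the shorter bins hosts had the lower share, for example 17.1% (18 of 105) against 18.3% from 2 to 5 kb. These bins rest on few hosts, down to 1 of 9 under 500 bp, and the differences were not tested. For each gene group below, the number of hosts is therefore set beside the number that its genes would give at the rate of all genes of like intron length. These are counts without a test.

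Among signalling genes, 18 of 90 eligible genes were hosts, against 13.2 at the rate of like genes. S and Mad lead, followed by drk, which encodes the receptor tyrosine kinase adaptor, at 510.9 and by ex, a Hippo pathway gene, at 457.4. The Notch pathway ubiquitin ligase gene neur scored 413.1, and the ligand genes Wnt6 and hh were near the lower limit at 164.9 and 163.1. Among transcription factors, 15 of 92 were hosts, against 15.8. After sim and Mad came rib at 736.2 and ken at 679.2, both genes of BTB-domain regulators. The cad gene of posterior patterning scored 417.7 and carried TGTTTGC near its summit. Of the genes in these lists, neur, Wnt6, hh and cad were picked after their values were seen.

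Nervous system and axon guidance genes were hosts in 8 of 32 cases, against 5.94, with chic (profilin) at 401.0, dnt (a Ryk-family receptor) at 383.6, Shal (a potassium channel) at 338.8 and unc-5 (a netrin receptor) at 331.1. The elav summit, at 325.7, lies in an intron shared with arg and cannot be assigned to elav. For chromatin and co-regulator genes the count was 7 of 68, against 5.31, and trx and simj were followed by the co-repressor gene Sin3A at 446.1 and the histone demethylase gene Kdm4B at 344.0. Cell cycle genes gave 4 of 44, against 1.78: CycE at 438.3, Cdk4 at 288.0, Cdc7 at 261.8 and CycG at 206.2. Ecdysone response genes gave 3 of 18, against 2.33, and besides ImpL2 and E23 these were ImpE1 at 249.2.

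Muscle and mesoderm genes gave 5 of 42, against 5.74, among them rhea (talin) at 446.5, the MyoD-family gene nau at 302.1, Prm (paramyosin) at 229.5 and the troponin C gene TpnC73F at 213.1. Genes of epithelium, adhesion and cuticle gave 5 of 46, against 6.38, with T48, the zona pellucida domain gene pio at 275.7 and the laminin genes LanB1 and LanA at 228.3 and 206.4. Stress genes gave 3 of 26, against 2.17, namely the caspase inhibitor gene Diap1 at 455.8, the chaperone gene mrj at 340.0 and the autophagy kinase gene Atg1 at 211.1. The Atg1 peak with that score also lies in CG42709. RNA-binding and splicing genes gave elav and Hrb27C, 2 of 45 against 2.18, and translation genes gave Pdcd4 alone, 1 of 26 against 1.12. The Hrb27C peak, at 212.4, had no candidate in replicate 1. No gene group stood more than 5 hosts above or below the number at the rate of like genes, but this cut was not set in advance. Signalling genes came closest to it, at 18 against 13.2. In proportion, cell cycle genes stood furthest above the rate, at 4 against 1.78. A group with under 5 hosts at that rate, such as cell cycle genes at 1.78, could not stand that far below it.

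At the host limit, the named peaks just inside scored higher than those named just outside, but these are too few to compare. At the TSS limit the scores were close. Just under 30 kb were Mnt, spanning 29872 bp with a score of 519.1, and dnr1, with 29813 bp and 311.8, whose second peak scored 209.0. Other hosts near this side of the limit varied, with 337.6 and 307.8 in chn (29548 bp) and 168.8 and 162.8 in Tpst (29402 bp). Just over it were CG43367, with 30011 bp and 172.3, and Mbs, with 30068 bp and 181.1. Summits 511 bp from a TSS, in wech and CG9981, scored 209.1 and 227.0, and those just within the limit, in LIMK1 at 500 bp and qtc at 497 bp, scored 202.7 and 251.7.

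Base composition and short words set the peaks apart from candidates in the same kind of sequence. Within 50 bp of the summit the median GC content was 33.7%, against 38.6% in the other candidates of the class, and 33.7% also in IDR peaks of longer hosts. Soft-masked repeat sequence held 22.3% of the summits and 21.2% of those candidates. TATTTAC, on either strand, was present within 50 bp of 52 summits, or 9.29% (7.15 to 11.97), against 4.79% of the candidates and 5.63% when these are weighted to the same GC content. TGTTTGC was present at 45, or 8.04%, against 5.57% and, weighted, 4.63%. TGTTTAC was present at 41, or 7.32%, against 4.33% and, weighted, 4.24%. The share of all IDR peaks with each was 8.36%, 6.26% and 5.77%. Since the words came from earlier results on these peaks, the shares are a description without a test.

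One or more of the 3 words lay within 50 bp of 118 of the 560 summits, or 21.1% (17.9 to 24.6). Peaks in introns of longer hosts had 26.2% (22.7 to 30.04), intergenic peaks 16.6% (13.4 to 20.4) and other candidates in shorter hosts 13.9%. The intervals of shorter and longer hosts overlap, and this difference was not tested. By 20 bp bin along the forward strand, 7.86% of the 560 windows had a word centred 0 to 20 bp from the summit and 6.61% one at -20 to 0 bp, against 3.47% and 3.55% of candidates. Peaks with 1 word numbered 100, with 2 words 16 and with all 3 words 2, and their median scores were 257.2, 288.7 and 230.9, against 242.4 for the 442 peaks with none. The majority of peaks, and the highest, in CG11050 and CG32772 printed above, therefore carry none of these letters within 50 bp.

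**Figure D4:**
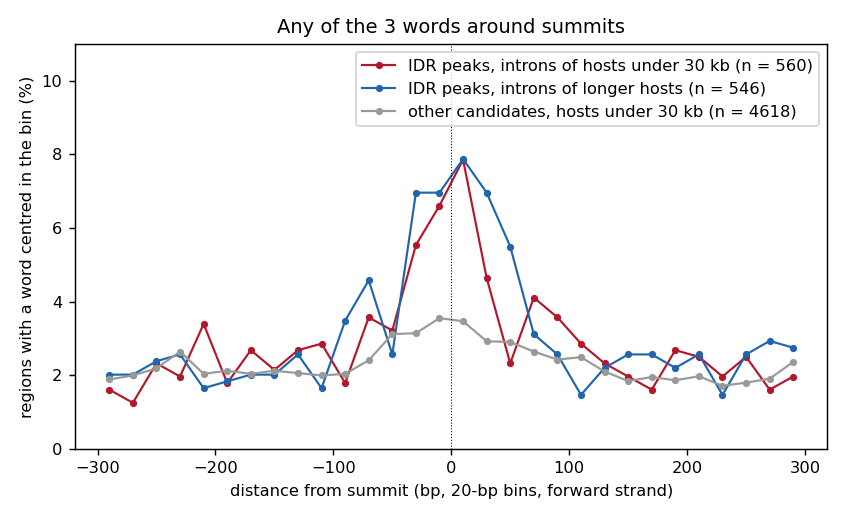
Share of regions with any of the 3 words on either strand centred in each 20 bp bin (vertical axis, percent) by distance from the summit (horizontal axis, bp, forward strand), for the isolated intronic IDR peaks of hosts under 30 kb and of longer hosts and for the other candidates of shorter hosts. The 560 peaks reach 7.86% in the bin from 0 to 20 bp, against 3.47% in the candidates.

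Another 12 motifs were searched on both strands in the same window. The DNA replication element TATCGATA, a promoter word, was at none of the 560 summits (upper Wilson limit 0.681%), against 0.108% of candidates weighted for GC. It was also at none of the isolated peaks in longer hosts or intergenic sequence. All IDR summits, which include the promoter peaks that the rule leaves out, had it at 42, or 1.03%. The homeodomain core TAATTA was at 8.39%, against 10.4% of candidates weighted for GC, and a run of AAAAAAAA at 8.93%, against 10.5%. The Su(H) site TGGGAA was at 5.71%, against 4.95%, the STAT site TTCNNNGAA at 4.11%, against 3.25%, and the AP-1 site TGANTCA at 3.57%, against 2.74%. The E-box CAGCTG was at 3.39%, against 3.29%, and the CA repeat CACACACA at 2.68%, against 2.00%. The GATA site AGATAAG was at 2.50%, against 1.87%, and the Zelda site CAGGTA at 2.32%, against 2.11%. The GAGA element GAGAGAG was at 1.07%, against 1.06%, and the Grainyhead core AACCGGTT at 0.536%, against 0.145%. Except for the Grainyhead core, present at 3 summits, the 95% Wilson interval of each share among the 560 peaks holds the GC-weighted share in the candidates. A match of letters is not evidence of binding by the named factor, and their absence from a window draws nothing about it.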

How the data were processed

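Per the file headers, each deposited candidate list was made by the authors from a library's alignments against 1 control file, and these lists were then the source of the IDR list. Coordinates are dm6. The sources used here name no aligner, peak caller or IDR threshold. The deposited files hold intervals with a score per peak, as given by the authors' peak calling, and no read counts, so the depth is unknown. The deposited −log10 q values were described and not used. The 4089 IDR peaks are the highest of the 30000 pooled candidates by score, and 2 of their summits lie outside their interval. The most common width, 416 bp, was shared by 378 of the 560 peaks.

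Genes came from Ensembl release 115, without transposable elements, and sequence from the RefSeq copy of dm6. Introns are numbered in the transcript of the host that holds the summit. Scores of a replicate are those of its highest candidate overlapping by at least 1 bp. Differences between shares went through Fisher's exact test, two-sided, with 95% Wilson intervals (scipy 1.17.1). Benjamini-Hochberg adjustment (statsmodels 0.14.6) was over 6 tests, or fewer for a single replicate's list. Units are regions or genes, not samples. GC weighting used bins of 5 percentage points. Weighting, the rates by intron length, the shares by distance, host span and intron number and the counts of any of the 3 words were chosen after seeing the data. Tests were tried on simulated data.

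The peaks, gene lists, words and tests were chosen with earlier results of these data known. Named genes are the 25 highest peaks found in the 4089 highest candidates of both replicates, up to 4 hosts per list, hosts with several peaks, and those next to the limits; others are said to be chosen after their values were seen. Both biological replicates are 1 group, so no comparison between conditions was made.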

Additional observations from a re-analysis of the deposited data

How the results depend on the processing

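The higher IDR share in introns of shorter hosts kept its direction and passed the test in all 8 alternatives (log2 odds ratio 0.43 to 0.71 against longer hosts, 0.61 to 0.98 against intergenic candidates). The 560 peaks became 346 among the upper 50% of IDR peaks by score, and 538 to 561 in the single replicates' lists. The first-intron difference passed with a 40 kb host limit (0.30), a 2 kb chain gap (0.30), no chain rule (0.33) and the upper 50% (0.54), and was 0.27 to 0.53 in the single replicates. It missed the threshold with a 20 kb host limit (0.35), a 250 bp window (0.24), a 1000 bp window (0.25) and a 10 kb chain gap (0.18). The promoter-summit difference missed the threshold with a 250 bp window (0.35), a 10 kb gap (0.16) or 1 kb or more of intron (0.34), and was 1.26 with no chain rule. The difference in both top lists from longer hosts became negative with a 40 kb limit (-0.18), a 2 kb gap (-0.014), a 10 kb gap (-0.11) and the upper 50% (-1.73), and that from intergenic peaks -1.10 in the last; none of these passed. The cause was not tested. With 100 bp on each side, the 3 words were at 13.9%, 13.2% and 10.9% of the peaks. No paired analysis was possible because both replicates form 1 group. Read depth is unknown, so no limit can be set for the 11 peaks without a replicate 1 candidate.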
